A study of Homo sapiens with 3 samples.

Results

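Among the cells of a day 3 culture of human pluripotent stem cells, 396 carried transcripts of both MSGN1 and TBX6 with little LHX1, and these cells are described here under the name MSGN1-TBX6 cells. They were chosen by measured values: at least 1 unique molecular identifier (UMI, a counted transcript molecule) of MSGN1, at least 1 of TBX6 and under 10 of LHX1. They made up 5.45% of the 7261 day 3 cells kept after filtering (exact binomial 95% interval 4.94% to 6.0%) and were set against 4214 cells of the same library with no UMI of either gene, called neither cells. The day 2 library held 293 cells that met the same rule, of 7892 kept, and the day 1 library held 1, of 3677 kept. The series thus had 18830 kept cells in all.

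The cells, of the established human embryonic stem cell line UCLA1, were grown under a Geltrex overlay (a basement membrane extract) in a culture that the labels call GiMO, and were taken at day 1, day 2 or day 3. The series title concerns the response to BMP4 over time in a model of the embryonic disc, TFAP2A-expressing cells and epithelial-to-mesenchymal transition. When BMP4 was given is not stated in those labels, and each day is 1 library of 1 cell line. With no replicate of any day, differences are described without p-values.

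MSGN1, a basic helix-loop-helix factor, and TBX6, a T-box factor, are the textbook markers of presomitic mesoderm, the unsegmented paraxial tissue that later forms somites, the blocks from which vertebrae and skeletal muscle arise. In the mouse, cells leave the primitive streak under WNT and FGF signals, switch on Msgn1 and Tbx6, and oscillate in Notch target genes until segments form. LHX1, a LIM homeobox factor, marks other early mesoderm, intermediate mesoderm and the anterior streak, and the rule set an upper limit on it.

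The promoters of 4 genes are shown because MSGN1 and TBX6 define the cells, while MESP2 and DKK1 belong to the same programme. In the mouse Msgn1 is a target of WNT signalling and of Tbx6, and Tbx6 acts on Mesp2. The sequences are from RefSeq on GRCh38.p14, 250 bases before to 50 bases after the gene's start, on the gene's strand: MSGN1 at chr2:17816210-17816509 (plus strand), TBX6 at chr16:30091875-30092174 (minus), MESP2 at chr15:89776082-89776381 (plus) and DKK1 at chr10:52314031-52314330 (plus). Capitals mark a TCF/LEF motif (CTTTG followed by AA, AT, TA or TT) or a T-box half-site (ACACCT), searched on both strands; these motifs do not overlap one another in the windows shown.
MSGN1: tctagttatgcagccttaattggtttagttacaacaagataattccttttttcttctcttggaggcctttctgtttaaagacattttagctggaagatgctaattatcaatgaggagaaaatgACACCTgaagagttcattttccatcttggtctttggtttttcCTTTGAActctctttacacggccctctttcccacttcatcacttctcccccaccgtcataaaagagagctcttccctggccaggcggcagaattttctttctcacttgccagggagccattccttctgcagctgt
TBX6: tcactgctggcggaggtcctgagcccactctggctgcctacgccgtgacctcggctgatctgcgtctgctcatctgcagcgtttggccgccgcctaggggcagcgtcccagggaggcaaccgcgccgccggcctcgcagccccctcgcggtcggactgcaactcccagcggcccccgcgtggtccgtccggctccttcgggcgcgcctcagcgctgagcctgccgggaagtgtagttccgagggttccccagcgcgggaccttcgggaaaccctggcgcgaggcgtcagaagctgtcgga
MESP2: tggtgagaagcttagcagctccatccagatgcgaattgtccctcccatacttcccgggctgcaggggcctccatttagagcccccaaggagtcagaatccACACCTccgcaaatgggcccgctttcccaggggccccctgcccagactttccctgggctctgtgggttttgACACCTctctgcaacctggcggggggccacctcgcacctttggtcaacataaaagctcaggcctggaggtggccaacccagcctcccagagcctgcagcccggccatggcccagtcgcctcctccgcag
DKK1: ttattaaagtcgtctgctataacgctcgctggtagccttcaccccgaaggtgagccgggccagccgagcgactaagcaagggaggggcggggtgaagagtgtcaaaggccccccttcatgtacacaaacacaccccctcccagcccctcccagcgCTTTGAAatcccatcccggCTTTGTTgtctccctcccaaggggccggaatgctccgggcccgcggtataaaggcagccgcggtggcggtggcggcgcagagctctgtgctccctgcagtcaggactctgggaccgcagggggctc
The MSGN1 window held 1 motif of each kind, the MESP2 window 2 T-box half-sites and the DKK1 window 2 TCF/LEF motifs, while neither motif occurred in these letters of the TBX6 window. Of 28 genes looked up, the 26 of the presomitic list with MSGN1 and TBX6, 22 had a promoter in the table. A TCF/LEF motif was in 4 of the 22 (18.2%), against 13.8% of all 35116 promoters of that length, and a T-box half-site was in 5 (22.7%), against 11.4%. A match is a description of the letters and does not show binding.

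The chosen cells mostly held few molecules of the genes that chose them. MSGN1 was at 1 UMI in 166 of the 396 cells and at 5 or more in 63, with a maximum of 16. TBX6 was at 1 UMI in 186 cells and at 5 or more in 19, with a maximum of 9. Only 132 cells had at least 2 UMIs of each gene, so the lower edge of the class was set by single molecules. Levels below are CPM, UMIs of a gene per 1000000 UMIs summed over the cells of a class, with exact 95% intervals that cover counting error only. MSGN1 (ENSG00000151379) lies on chromosome 2 at 17816460 to 17817798 of hg38 and TBX6 (ENSG00000149922) on chromosome 16 at 30085793 to 30091924, both coding genes by GENCODE. By construction MSGN1 was at 114 CPM and TBX6 at 87.6 CPM in MSGN1-TBX6 cells, and both were at 0 in neither cells.

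Free RNA and depth both bear on single UMIs. Among day 3 cells with at least 3 UMIs of SOX17, an endoderm and germ cell factor, which should lack both genes, 8.26% had an MSGN1 UMI and 14.3% a TBX6 UMI, at a median of 20632 UMIs per cell. The rule asked for a UMI of each gene, so shares in the MSGN1-TBX6 cells cannot be set against these, and how many of their single UMIs were free RNA was not tested. In the whole library MSGN1 was in 1299 cells and TBX6 in 2463, and both were in 715 cells, where 441 would be the number if the genes were independent. Depth adds to such an excess, and the medians were 21671 UMIs per cell in MSGN1-TBX6 cells and 18264 in neither cells.

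LHX1 had no gap at the limit of 10 UMIs. Of the 715 cells with both genes, 99 had no LHX1 UMI, 23 had 8, 20 had 9, 17 had 10 and 18 had 11, with a median of 8 and a maximum of 125. The 319 cells at 10 or more were left out by the rule. The limit also separated the classes in depth, since those 319 cells had a median of 28022 UMIs. The neither cells had no LHX1 limit, and 2500 of the 4214 were under 10. LHX1 itself was at 131 CPM in MSGN1-TBX6 cells and 620 CPM in neither cells, which the rule fixed, so the counts of genes and of lists are also given against those 2500 cells, here called the LHX1-limited reference.

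**Figure D1:**
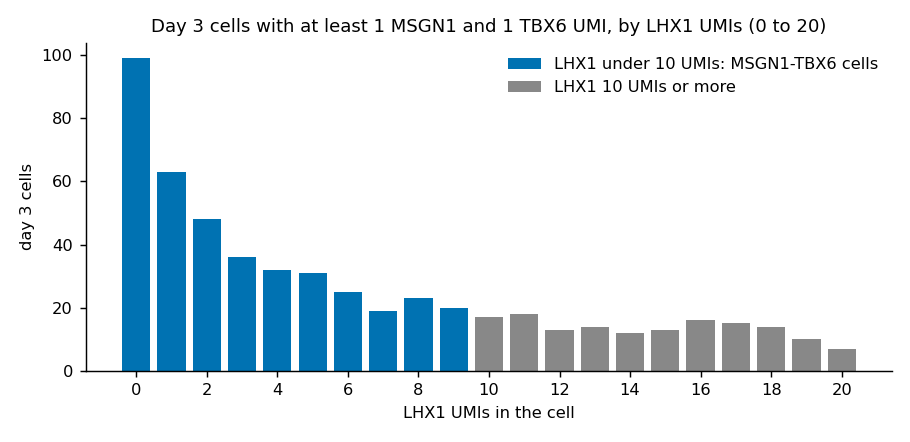
Number of day 3 cells (y axis) with at least 1 UMI of MSGN1 and of TBX6, by their LHX1 UMIs from 0 to 20 (x axis); blue bars are the MSGN1-TBX6 cells and grey bars the cells left out by the limit of 10. The counts run down without a gap at the limit, with 20 cells at 9 UMIs and 17 at 10.

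Against neither cells, 120 of 9830 genes (1.22%) were higher and 283 (2.88%) lower by at least 2-fold, where a gene needed 10 CPM or more in its higher class and an interval that excludes 1. With the LHX1-limited reference 143 of 9910 (1.44%) were higher and 353 (3.56%) lower. The 15 genes with the highest ratios against all neither cells held HES7 and LFNG of the presomitic list. HES7, the oscillating transcriptional repressor of the segmentation clock, was at 11.3 CPM in MSGN1-TBX6 cells and 1.19 CPM in neither cells, 9.45-fold higher (7.09 to 12.6). WNT8A, a WNT ligand of the mouse streak and of the streak list, was at 38.6 CPM against 5.26 CPM, 7.34-fold higher (6.35 to 8.47). LFNG, the glycosyltransferase that modifies Notch and cycles with the clock, was at 15.1 CPM against 2.67 CPM, 5.66-fold higher (4.54 to 7.04).

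The other leading genes included 4 long noncoding RNAs, NALCN-AS1, LINC02653, AL359915.1 and LINC00698. NALCN-AS1, an antisense RNA whose reads the counting may share with NALCN, led at 17.4 CPM in MSGN1-TBX6 cells and 1.22 CPM in neither cells, 14.3-fold higher (11.1 to 18.6). The most abundant of the 15 was NKAIN2, known from brain, at 207 CPM against 35.8 CPM, seen in 281 of the 396 cells. LINC02653 was at 45.9 CPM against 6.69 CPM, and LINC00698 at 98.1 CPM against 21.1 CPM. PDZRN4, GPR158, DNAH11, TTC29, AL359915.1, KCNK13, SMOC2 and TGFA completed the 15, with ratios of 8.98, 6.33, 6.23, 5.25, 5.21, 4.70, 4.41 and 4.24. Each of the 15 had a UMI in at least 48 of the 396 cells, so none rested on a single cell.

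The 10 genes with the lowest ratios included signals and factors of other lineages. RSPO2, a secreted WNT potentiator, was at 2.74 CPM in MSGN1-TBX6 cells and 41.2 CPM in neither cells, 15-fold lower (10.2 to 23.2). IGFBP3, a binding protein of insulin-like growth factors listed here with amnion genes, was at 0.658 CPM, 6 UMIs in 2 cells, against 13.1 CPM. TFAP2C, a factor of amnion and germ cells, was at 1.10 CPM against 12.2 CPM, 11.1-fold lower (6.0 to 23.2). NRK, EMX1, DGKB, DSCAM, RGS13, TMOD1 and LINC00578 were the others, between 7.67-fold and 23.3-fold lower.

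Presomitic genes had the highest median among the 29 gene lists examined. For lists, a gene was called higher or lower from 1.5-fold with an interval that excludes 1, among genes of at least 2 CPM in either class; 6.1% of all 14370 such genes were higher and 8.81% lower, and their median log2 ratio was -0.01. MSGN1, TBX6 and LHX1 are left out of every count. Of 26 presomitic genes 22 were measured; 13 of them were higher, 2 lower, and their median log2 ratio was 0.95. Against the 2500 neither cells with LHX1 under 10, where 5.4% of genes were higher and 10.7% lower, 15 of 23 passed upward and 3 downward, and the median was 1.31.

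The secreted signals of the presomitic list differed in how well they separated the cells. RSPO3, which potentiates WNT signals through LGR receptors, was at 177 CPM in MSGN1-TBX6 cells and 58.0 CPM in neither cells, 3.05-fold higher (2.88 to 3.23), with a UMI in 324 of the 396 cells. FGF17, a ligand of the FGF8 subfamily, was at 28.5 CPM against 10.9 CPM, 2.61-fold higher (2.27 to 3.00). It was however at 39.7 CPM in the SOX17 cells, so it did not mark the MSGN1-TBX6 cells alone. DKK1, a secreted WNT inhibitor that oscillates in mouse presomitic mesoderm, was at 33.3 CPM against 28.1 CPM, a ratio of 1.19 (1.05 to 1.34) that is under the 1.5-fold limit. Against neither cells with LHX1 under 10, at 21.9 CPM, DKK1 was 1.53-fold higher (1.34 to 1.74). FGF8 itself, the ligand of the posterior growth zone, was at 2.19 CPM against 3.63 CPM and DUSP6, a phosphatase induced by FGF-ERK signalling, at 46.4 CPM against 75.5 CPM, both lower by the list rule.

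Genes of the segmentation clock and Notch pathway were higher in part. Of 12 measured, HES7, LFNG, DLL1 and DLL3 were higher and NOTCH3 and HEY1 lower (median log2 ratio 0.20); with the LHX1-limited reference 5 of 13 were higher, DKK1 added, and 3 lower, JAG1 added (median 0.17). DLL3, a divergent Notch ligand of presomitic cells, was the most abundant, at 247 CPM in MSGN1-TBX6 cells and 128 CPM in neither cells, and had a UMI in 381 of the 396 cells. No count of neither cells, which were less deep, is given here beside those for DLL3 and RSPO3. DLL1, the activating Notch ligand, was at 12.4 CPM against 3.31 CPM, 3.74-fold higher (2.97 to 4.68). After thinning to 5000 UMIs, HES7 was seen in 5.05% of MSGN1-TBX6 cells (18.2% unthinned), against 0.732% of neither cells (1.99% unthinned) and 0.435% of the SOX17 cells. HES7 and LFNG were seen together in 2 thinned cells, where 1.52 would be the number if they were independent, too few to describe an oscillation.

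Some posterior and streak factors of the list were also higher, while CDX4, EVX1 and WNT5B were not called higher with either reference. CDX4 was called lower with the LHX1-limited reference. TBXT (brachyury), the T-box factor of the streak and tail bud, was at 154 CPM in MSGN1-TBX6 cells and 36.7 CPM in neither cells, 4.20-fold higher (3.94 to 4.48). CDX1, a caudal homeobox factor, was at 45.7 CPM against 12.8 CPM, 3.57-fold higher (3.18 to 4.01). CDX2 was at 39.9 CPM against 25.2 CPM, 1.58-fold higher, but its ratio was 1.02 (0.908 to 1.14) against neither cells with LHX1 under 10. WNT3A, the WNT ligand of the mouse tail bud, was at 12.3 CPM against 4.74 CPM, and CYP26A1, which degrades retinoic acid, at 57.3 CPM against 24.6 CPM. The cell surface genes PCDH19 and EPHA4 were 3.21-fold and 1.93-fold higher. MESP2, which sets segment borders in the mouse, was at 38.5 CPM against 26.5 CPM, a ratio of 1.45 (1.29 to 1.62), and 3.47-fold higher (3.02 to 3.99) against neither cells with LHX1 under 10, at 11.1 CPM.

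Markers of formed somites were nearly absent. Of 15 somite genes only 6 reached 2 CPM; FOXC1 and PAX3 were called higher, and the median log2 ratio was 0.24, against -0.10 with the LHX1-limited reference. MEOX1 had 1 UMI in the 396 cells, UNCX and RIPPLY1 had none, where 3 UMIs would give 0.329 CPM. TCF15, an early somite factor, was at 3.73 CPM in MSGN1-TBX6 cells and 4.01 CPM in neither cells. FOXC1, a forkhead factor of paraxial and other mesoderm, was at 55.9 CPM against 24.3 CPM, 2.30-fold higher (2.09 to 2.54). The PAX3 call rested on 2.63 CPM against 1.63 CPM and turned to 0.975 against neither cells with LHX1 under 10.

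**Figure D2:**
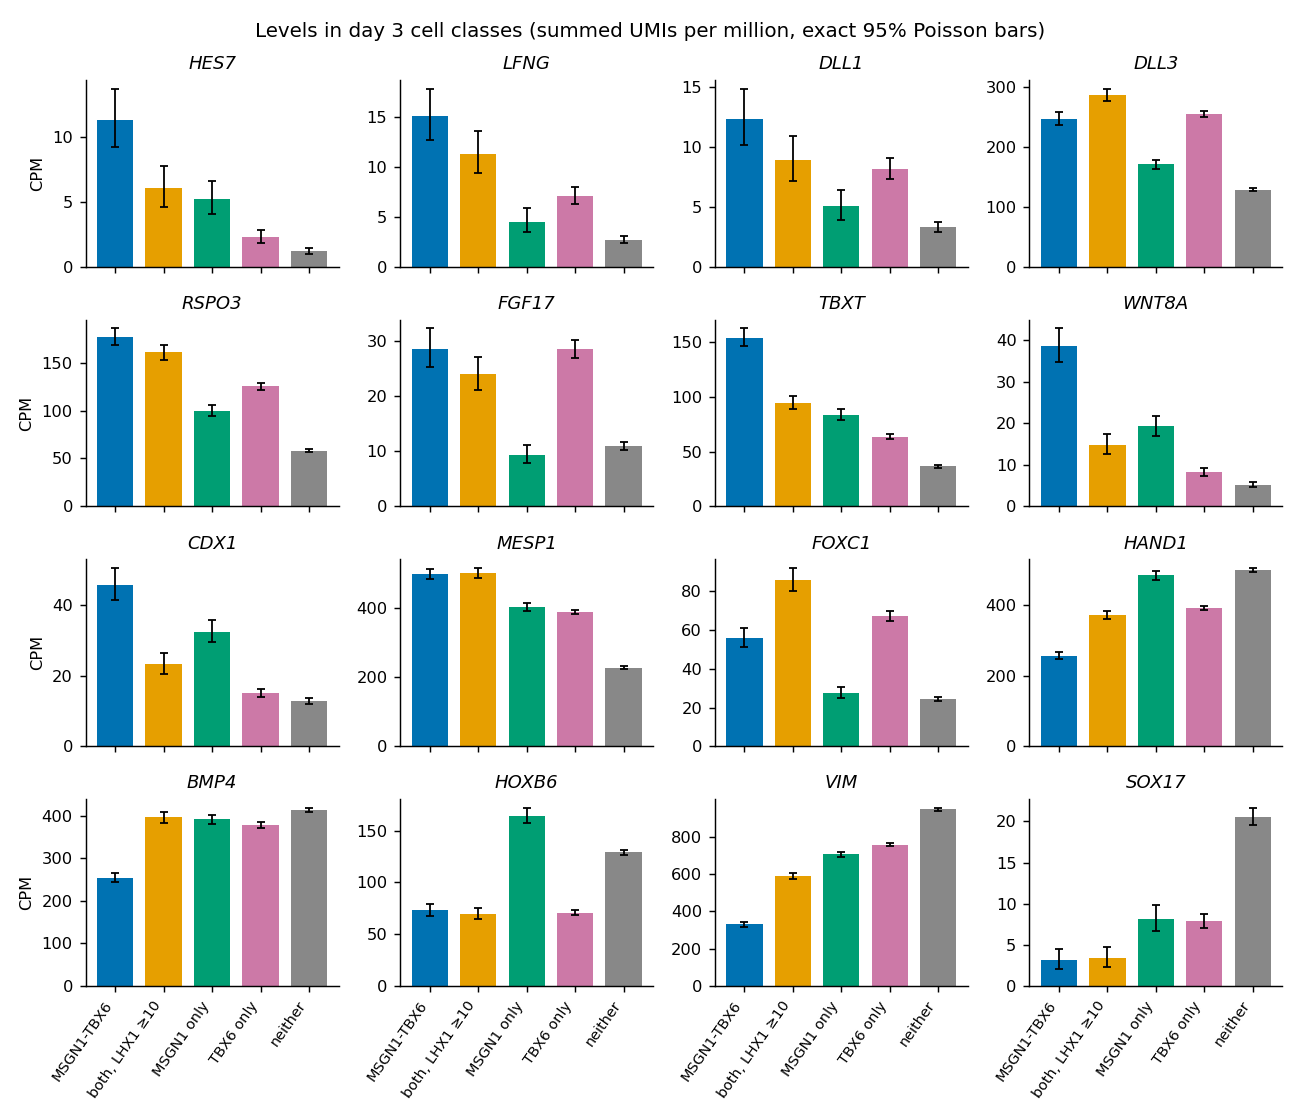
Levels in CPM (y axes, from 0) of 16 genes in 5 classes of day 3 cells: MSGN1-TBX6 cells, cells with both genes and at least 10 LHX1 UMIs, cells with MSGN1 only, with TBX6 only and with neither; bars are summed UMIs as CPM and lines exact 95% Poisson intervals. HES7, LFNG, TBXT, WNT8A and CDX1 were highest in MSGN1-TBX6 cells, and HAND1, BMP4 and VIM were lowest there.

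Of the early mesoderm factors that the streak switches on, MESP1 was seen in nearly all of the cells and others in fewer. MESP1, the basic helix-loop-helix factor of nascent mesoderm, was at 495 CPM in MSGN1-TBX6 cells and 227 CPM in neither cells, 2.18-fold higher (2.11 to 2.26). It had a UMI in 3096 of the 4214 neither cells, which were less deep, and in 390 of the 396 MSGN1-TBX6 cells. SNAI1, a repressor of epithelial genes, was 2.15-fold higher (1.98 to 2.33) and had a UMI in 77.8% of the cells, and MESP2 had one in 50%. MESP1 and SNAI1, 2 of 11 early mesoderm genes, were called higher and TWIST1 lower (median log2 ratio 0.08); with the LHX1-limited reference 6 were higher and 1 lower (median 0.63). Of 13 streak genes, TBXT, MIXL1, GSC, FGF4 and WNT8A were higher and FGF8, FOXA2 and GDF3 lower (median 0.32); with the LHX1-limited reference EOMES and WNT3 were higher too, 7 of 13 in all, and the same 3 lower (median 0.59). MIXL1 was at 481 CPM against 269 CPM, while EOMES, a T-box factor of the anterior streak, was at 122 CPM against 111 CPM. Against the LHX1-limited reference, at 70.4 CPM, EOMES was 1.74-fold higher (1.62 to 1.86).

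Lateral plate and extraembryonic mesoderm genes were lower than in neither cells but far from absent, which goes against a reading of the class as paraxial mesoderm alone. None of 18 was higher and 12 were lower (median log2 ratio -0.82); with the LHX1-limited reference 1 of 19 was higher and 10 lower (median -0.77). HAND1, a basic helix-loop-helix factor of lateral plate, was at 256 CPM in MSGN1-TBX6 cells and 498 CPM in neither cells, 1.94-fold lower (1.86 to 2.03). Even so, 332 of the 396 cells had a HAND1 UMI (83.8%), against 83.4% of neither cells and 50% of the SOX17 cells. After thinning the shares were 54.0% in MSGN1-TBX6 cells, 71.6% in neither cells and 27.8% in the SOX17 cells. BMP4 was at 254 CPM against 413 CPM, GATA4 at 65.7 CPM against 122 CPM, and ISL1 at 22.1 CPM against 37.4 CPM. The genes with the lowest ratios were HAND2, at 1.97 CPM against 12.8 CPM, TMEM88, at 30.0 CPM against 117 CPM, and MEIS2, at 27.3 CPM against 101 CPM. GATA6 lay on the other side, at 291 CPM against 196 CPM and a ratio of 1.48 (1.42 to 1.55), and was 3.00-fold higher (2.85 to 3.14) against neither cells with LHX1 under 10.

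HOX genes, which order tissues from head to tail, were mostly lower. Of 23 measured, 19 were lower (median log2 ratio -1.06), and with the LHX1-limited reference 22 of 25 were lower. HOXA5 was at 5.59 CPM in MSGN1-TBX6 cells and 3.48 CPM in neither cells, 1.60-fold higher (1.17 to 2.17), but its ratio was 0.964 (0.699 to 1.31) with the LHX1-limited reference. HOXB6 was at 73.1 CPM in MSGN1-TBX6 cells and 129 CPM in neither cells and HOXB9 at 20.4 CPM against 31.7 CPM. HOXB2 was at 27.2 CPM against 64.1 CPM, 2.36-fold lower (2.07 to 2.69). Adjacent HOX genes and their antisense transcripts may share reads in the counting.

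Endoderm, germ cell and amnion genes were mostly lower than in neither cells. Lower does not mean absent, since HAND1 and GATA4, described above, are on the amnion and endoderm lists. Of 8 endoderm genes 7 were lower and none higher, all 5 germ cell genes were lower, and 9 of 12 amnion and surface ectoderm genes were lower and none higher; several genes belong to more than 1 of these lists. With the LHX1-limited reference 6 of 8 endoderm, all 5 germ cell and 12 of 13 amnion genes were lower, and none was higher. SOX17 was at 3.18 CPM in MSGN1-TBX6 cells and 20.6 CPM in neither cells, and 21 of its 29 UMIs were in 2 cells. FOXA2, SOX1 and PAX6 had no UMI in the 396 cells, TAL1 had 1, and NANOS3 was at 0.658 CPM against 5.71 CPM. The pluripotency factors SOX2 and NANOG were at 1.10 CPM against 9.73 CPM and 3.84 CPM against 15.6 CPM. POU5F1, whose pseudogenes may share reads with it, was at 557 CPM against 387 CPM, a ratio of 1.44. Of 5 intermediate mesoderm genes measured, OSR1 was higher, at 3.51 CPM against 0.948 CPM. PAX2, at 9.32 CPM against 14 CPM, GATA3 and HOXD11 were lower (median log2 ratio -0.59). With the LHX1-limited reference OSR1 was again higher, GATA3 and HOXD11 were lower and PAX2 was not called (median -0.24). Of 7 hemato-endothelial genes measured, ETV2, GATA2 and SOX7 were lower and none was higher; with the LHX1-limited reference GATA2, RUNX1, SOX7 and TEK were lower.

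Ligands and targets of the main pathways did not move as blocks. Among 10 WNT ligand and secretion genes WNT3A and WNT8A were higher and WNT4, WNT6 and WNT11 lower, and among 16 WNT targets 5 were higher and 5 lower. With the LHX1-limited reference 3 of 9 ligand genes were higher and 2 lower, and 6 of the 16 targets were higher and 4 lower. AXIN2, the general WNT target, was at 18.6 CPM in MSGN1-TBX6 cells and 16.9 CPM in neither cells. LGR5, a receptor of the R-spondins, was at 78.0 CPM against 147 CPM, 1.88-fold lower, but 1.59-fold higher (1.46 to 1.73) with the LHX1-limited reference. Of 8 NODAL response genes 5 were lower and FOXH1 higher; LEFTY2, a NODAL inhibitor, was at 6.80 CPM against 34.5 CPM, 5.08-fold lower (3.95 to 6.64), and LEFTY1 was 7.14-fold lower. CER1, another secreted inhibitor, was 3.16-fold lower (2.80 to 3.58), but its ratio was 1.13 (0.990 to 1.29) with the LHX1-limited reference. Of 11 BMP response genes 5 were lower and none higher. With that reference 4 NODAL response and 4 BMP response genes were lower, and FOXH1 was again higher.

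Epithelial and mesenchymal genes gave mixed results in UMIs summed over the class, which do not show whether single cells held both. Among 14 mesenchymal genes SNAI1 and TWIST2 were higher and CDH11, VIM, ZEB2, TWIST1, COL1A1 and COL3A1 lower, and with the LHX1-limited reference CDH11 was no longer called. VIM, the mesenchymal intermediate filament, was at 330 CPM in MSGN1-TBX6 cells and 945 CPM in neither cells, 2.87-fold lower (2.76 to 2.97). The cadherins of the 2 states differed little, with CDH2 at 407 CPM against 386 CPM and CDH1 at 37.3 CPM against 36.5 CPM. Of 14 epithelial genes OCLN was lower and none higher (median log2 ratio -0.12). With the LHX1-limited reference 7 of the 14 were lower, CDH1, EPCAM, ESRP2, GRHL2, CLDN4, OCLN and CDH3, and none higher (median -0.61). Of the 2500 cells of that reference, 1486 had a MESP1 UMI. Ratios of these genes against the 1486 cells alone are not given here, and the cause of the calls was not tested. CDH1 was at 59.0 CPM in that reference, a ratio of 0.632 (0.563 to 0.708), and EPCAM, another epithelial adhesion molecule, at 72.8 CPM against 123 CPM. None of 15 S phase and none of 15 G2/M genes was called in either direction, with medians of 0.12 and 0.10. Of 9 dissociation stress genes EGR1 was higher and FOS and ATF3 lower, and of 8 genes of the integrated stress response TRIB3 and DDIT4 were lower. The LHX1-limited reference gave none for either cell cycle list, no higher and 3 lower dissociation stress genes, FOS, JUN and ATF3, and 3 lower genes of the integrated stress response.

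**Figure D3:**
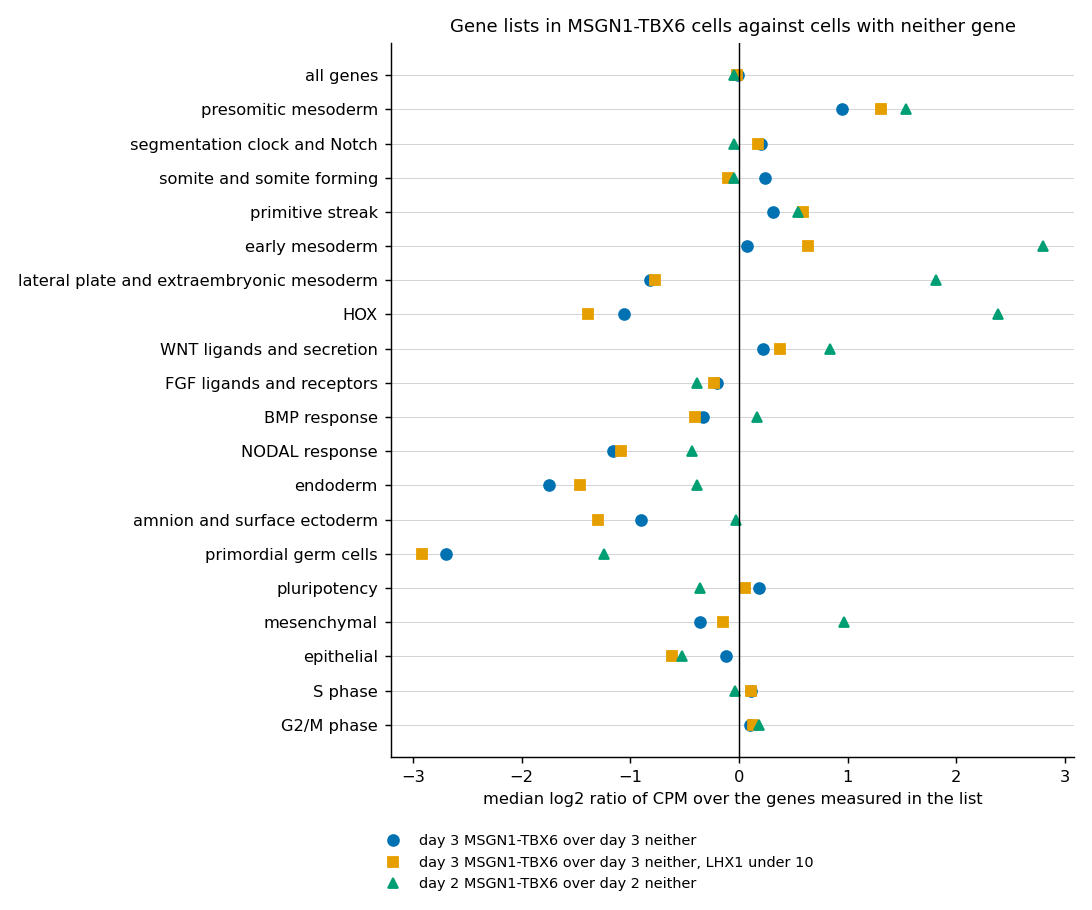
Median log2 ratio of CPM (x axis) over the measured genes of 19 lists and of all genes (y axis) for day 3 MSGN1-TBX6 cells over day 3 neither cells, over neither cells with LHX1 under 10, and for day 2 MSGN1-TBX6 cells over day 2 neither cells. The presomitic list had medians of 0.95, 1.31 and 1.54, while lateral plate and HOX medians were below 0 in both day 3 comparisons and above 0 at day 2.

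The 396 cells were not uniform, and HAND1 and TBXT ran in opposite directions among them. When the cells were divided by HAND1 UMIs, 64 had none, 183 had 1 to 4 and 149 had 5 or more, with medians of 20771, 20563 and 22878 UMIs in all. TBXT was at 229, 192 and 86.2 CPM over these 3 classes in that order. CYP26A1 was at 92.2, 79.7 and 20.6 CPM, and DKK1 at 57.9, 42.7 and 14.1 CPM. FGF17 was at 48.6, 34.9 and 14.1 CPM, and NODAL, the streak ligand, at 96.5, 32.7 and 14.4 CPM. NKAIN2 was at 360, 271 and 82.2 CPM. All of these were lowest where HAND1 was highest.

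Lateral plate and posterior HOX genes had the reverse order. BMP4 was at 99.3, 159 and 412 CPM with HAND1 at 0, 1 to 4 and 5 or more UMIs, and TMEM88 at 5.00, 8.04 and 62.7 CPM. HOXB6 was at 5.00, 14.8 and 160.5 CPM, and HOXB9 at 5.00, 4.27 and 43.3 CPM. VIM was at 127, 207 and 535 CPM. MESP1 varied less, at 404, 474 and 552 CPM. MSGN1 was at 139, 124 and 94.8 CPM and TBX6 at 79.3, 105 and 72.6 CPM, so both genes were present in all 3 classes. RSPO3 was at 146, 215 and 148 CPM, highest in the middle class.

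**Figure D4:**
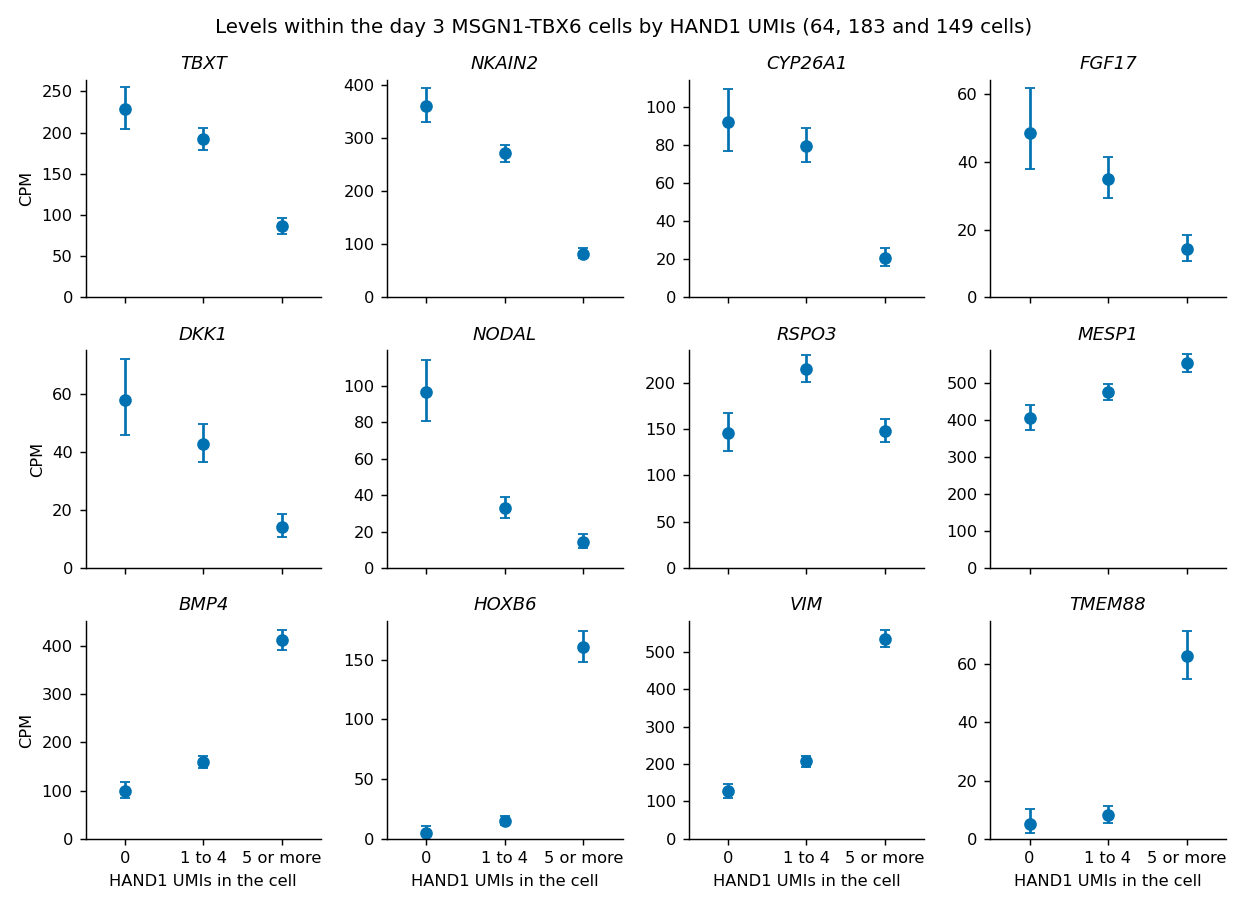
Levels in CPM (y axes, from 0) of 12 genes within the day 3 MSGN1-TBX6 cells, divided by HAND1 UMIs of the cell (x axes; 64, 183 and 149 cells); points are summed UMIs as CPM and lines exact 95% Poisson intervals. TBXT, NKAIN2, CYP26A1, FGF17, DKK1 and NODAL were lowest at 5 or more HAND1 UMIs, and BMP4, HOXB6, VIM and TMEM88 were highest there.

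The division by TBXT gave the mirror of this. TBXT was at 0 UMIs in 78 cells, at 1 or 2 in 104 and at 3 or more in 214, and depth ran with it, at medians of 18614, 19658.5 and 23634.5 UMIs. HAND1 was at 528, 307 and 161 CPM over these classes, HOXB6 at 173, 98.5 and 35.4 CPM and VIM at 679, 366 and 219 CPM. The opposite order did not amount to separate groups, since 58 cells had at least 5 HAND1 and at least 3 TBXT UMIs, and 6 had neither gene. In thinned cells HAND1 and TBXT were seen together in 73 cells, where 101 would be the number if they were independent. HAND1 and BMP4 were seen together in 145, where 126 would be that number. These counts come from cells of 1 library that differ in depth and carry no test.

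HES7, WNT8A and CDX1 were higher where MSGN1 was higher. Over the cells with 1, 2 to 4, and 5 or more MSGN1 UMIs (166, 167 and 63 cells), HES7 was at 6.21, 13.2 and 17.5 CPM and WNT8A at 29.9, 40.9 and 51.2 CPM. CDX1 was at 39.2, 46.3 and 57.6 CPM. LFNG did not follow this order, at 13.0, 18.4 and 12.2 CPM. LHX1 was at 169, 126 and 63.4 CPM and CER1 at 40.7, 29.5 and 8.14 CPM. DLL3, at 234, 255 and 257 CPM, and RSPO3, at 179, 177 and 174 CPM, hardly differed between the classes.

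Cells with only 1 of the genes had different companions. MSGN1 alone was seen in 584 day 3 cells (median 20123.5 UMIs) and TBX6 alone in 1748 (median 21112.5), which had no LHX1 limit. HES7 was at 11.3 CPM in MSGN1-TBX6 cells, 5.21 CPM with MSGN1 alone and 2.26 CPM with TBX6 alone. WNT8A was at 38.6, 19.3 and 8.20 CPM in that order, and CDX1 at 45.7, 32.4 and 15 CPM. FGF17 was at 28.5, 9.35 and 28.4 CPM, and FOXC1 at 55.9, 27.5 and 67.1 CPM. FGF17 and FOXC1 were therefore high wherever TBX6 was seen, while WNT8A and CDX1 were higher with MSGN1 alone than with TBX6 alone. LHX1 was at 378 CPM with MSGN1 alone and 895 CPM with TBX6 alone. With LHX1 held under 10 UMIs, 414 cells had MSGN1 alone and 562 TBX6 alone, and FGF17 was at 9.95 CPM in the MSGN1 cells and 28.6 CPM in the TBX6 cells. FOXC1 was at 18.2 CPM and 37.8 CPM, HES7 at 7.19 CPM and 2.89 CPM, and WNT8A at 23.7 CPM and 17.1 CPM in that order, so each kept its side.

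The 319 cells with both genes and at least 10 LHX1 UMIs were kept apart from the MSGN1-TBX6 cells by the LHX1 limit alone. Over these cells, 77 of 9690 genes (0.795%) were higher in MSGN1-TBX6 cells by at least 2-fold and 77 (0.795%) lower, and by the list rule 5.36% of 14171 genes were higher and 4.23% lower. Of 23 presomitic genes 6 were higher, HES7, WNT3A, CDX1, CDX2, WNT5B and TBXT, and none was lower. RSPO3 was at 177 CPM against 161 CPM and MESP1 at 495 CPM against 499 CPM. CER1, at 29.8 CPM against 108 CPM, and EMX1, at 0.986 CPM against 10.7 CPM, were lower with little LHX1. CDH1 was at 37.3 CPM against 22.0 CPM, and 5 of 14 epithelial genes were higher and none lower.

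Set against all 3389 day 3 cells with at least 10 LHX1 UMIs, which held no MSGN1-TBX6 cell by the rule, 272 of 9732 genes (2.79%) were higher by 2-fold and 239 (2.46%) lower, and by the list rule 10.8% of 14181 genes were higher and 6.67% lower. Presomitic genes were higher for 13 of 23 and lower for RIPPLY2 and APLNR (median log2 ratio 0.66). These were not the same 13 as against neither cells. CDX4, EVX1 and WNT5B were among them, while DLL3, FGF17, EPHA4 and DKK1 were called in neither direction, so these 4 did not separate MSGN1-TBX6 cells from LHX1-high cells. The 5 highest were NALCN-AS1, GPR158, WNT8A, AL359915.1 and NTNG1, between 6.31-fold and 9.89-fold, and the 5 lowest were OAS1, EMX1, LINC00578, NRG2 and DGKB. Epithelial genes were higher for 10 of 14, with CDH1 at 37.3 CPM against 12.7 CPM and EPCAM at 72.8 CPM against 24.3 CPM. HOX genes were higher for 12 of 19 and lower for HOXB2, HOXB3, HOXB4 and HOXB5. Of 9 amnion and surface ectoderm genes, TFAP2A, DLX5, KRT7 and KRT18 were higher and GATA3 and HAND1 lower (median log2 ratio 0.19), while 6 of 7 endoderm genes were lower and none higher.

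Of the MSGN1-TBX6 cells, 114 (28.8%) also had HAND1 with HAND2 or ISL1 and so fell among 2385 such HAND1 cells, of which they were 4.78%. With those 114 left out of both, 266 of 9876 genes (2.69%) were higher than in HAND1 cells and 402 (4.07%) lower by 2-fold, and by the list rule 10.5% of 14391 genes were higher and 9.11% lower. Presomitic genes were higher for 14 of 22 and lower for CDX4 and DUSP6, and HOX genes were lower for 20 of 25. Leaving out cells with HAND1 together with HAND2 or ISL1 lowers those 3 genes by itself. Only 3 MSGN1-TBX6 cells were among the 313 late streak cells, defined by TBXT without MESP1. Over those cells, 196 of 10149 genes (1.93%) were higher and 561 (5.53%) lower, and by the list rule 5.3% of 14820 genes were higher and 14.5% lower. FOXC1, at 56.2 CPM against 3.02 CPM, and RSPO3, at 178 CPM against 30.7 CPM, were higher, and NODAL, at 34.4 CPM against 105 CPM, and EPCAM, at 73.0 CPM against 182 CPM, lower.

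The same rule in the day 2 library, which did not choose the day 3 cells, found 293 cells, 3.71% of those kept, with a median of 17854 UMIs against 15737 in the 6706 day 2 neither cells. There MSGN1 was in 838 cells and TBX6 in 650, and both were in 302, where 69 would be the number if they were independent. Against day 2 neither cells 221 of 9841 genes (2.25%) were higher and 324 (3.29%) lower by 2-fold, and by the list rule 6.06% of 14499 genes were higher and 11% lower. Presomitic genes were higher for 19 of 23 and lower for FGF8 and DUSP6, with a median log2 ratio of 1.54. That was not the highest list median at day 2. Early mesoderm genes had a median of 2.80, with 10 of 11 higher and none lower, and the HOX and lateral plate medians were 2.39 and 1.81. HES7 was at 10.4 CPM in day 2 MSGN1-TBX6 cells and 0.453 CPM in day 2 neither cells, RSPO3 at 116 CPM against 6.19 CPM, DLL3 at 145 CPM against 11.2 CPM and MESP1 at 404 CPM against 35.0 CPM. DKK1 passed the rule at day 2, at 72.6 CPM against 22.6 CPM, 3.21-fold higher (2.90 to 3.56). HES7, LFNG, DLL1, DLL3, RSPO3, FGF17, WNT3A, CDX1, CDX2, CYP26A1, PCDH19, EPHA4 and TBXT, the 13 presomitic genes higher at day 3, were all higher at day 2.

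Lateral plate and HOXB genes lay on opposite sides at the 2 days. At day 2, 10 of 13 lateral plate genes were higher and none lower (median log2 ratio 1.81), and HOXB2, HOXB6 and HOXB9 were higher. HAND1 was at 94.0 CPM in day 2 MSGN1-TBX6 cells and 14.1 CPM in day 2 neither cells, 6.66-fold higher (6.04 to 7.34), against the 1.94-fold lower level at day 3. BMP4 was at 82.6 CPM against 24.6 CPM at day 2. The cells compared with also differed: SOX2 was at 88.9 CPM in day 2 neither cells and 9.73 CPM in day 3 neither cells, and MESP1 at 35.0 CPM and 227 CPM in that order. Whether the sides differ because of the cells with both genes or the neither cells cannot be told apart from the ratios alone.

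**Figure D5:**
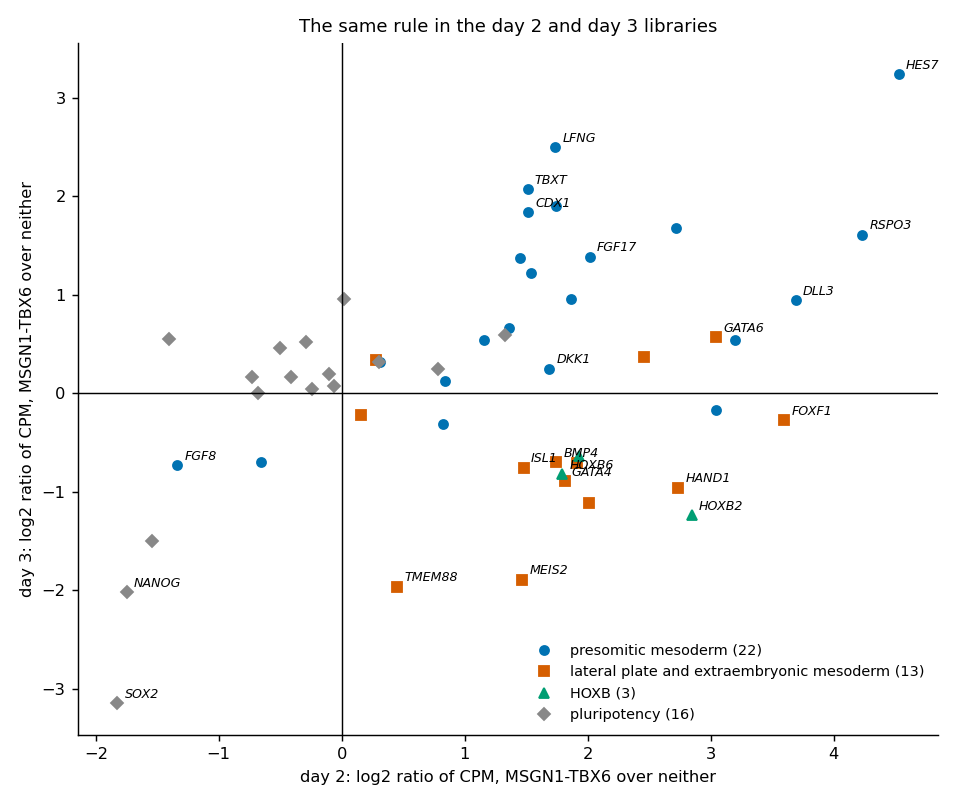
Log2 ratio of CPM of MSGN1-TBX6 over neither cells at day 3 (y axis) against the same at day 2 (x axis), each point a gene of the presomitic (22 genes), lateral plate (13), HOXB (3) or pluripotency (16) list in both libraries. HES7, RSPO3, LFNG and TBXT were above 0 in both, while HAND1, BMP4, GATA4, ISL1, HOXB2 and HOXB6 were above 0 at day 2 and below 0 at day 3.

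Direct levels separate the libraries further. In day 3 over day 2 MSGN1-TBX6 cells, 180 of 9743 genes (1.85%) were higher and 120 (1.23%) lower by 2-fold, and by the list rule 8.1% of 14437 genes were higher and 6.07% lower; day, library and any batch cannot be told apart. All 19 HOX genes measured were higher at day 3, with a median log2 ratio of 4.12, as were 14 of 17 lateral plate genes. HOXB6 was at 73.1 CPM at day 3 and 4.21 CPM at day 2, and HOXA10 at 12.1 CPM at day 3, with no UMI at day 2, where 3 UMIs would give 0.506 CPM. HAND1 was at 256 CPM at day 3 and 94.0 CPM at day 2, TMEM88 at 30.0 CPM and 4.72 CPM in that order.

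Presomitic genes differed between the days in both directions. Of 23 measured, MESP2, DLL1, DLL3, LFNG, RSPO3, PCDH19, APLNR and DUSP6 were higher at day 3 and NRARP, DKK1 and FGF8 lower (median log2 ratio 0.27). HES7 was at 11.3 CPM at day 3 and 10.4 CPM at day 2, a ratio of 1.08 (0.781 to 1.51). MSGN1 and TBX6 were held above 0 by the rule on both days, so their levels are not compared. DLL3 was 1.71-fold higher at day 3 (1.58 to 1.85) and RSPO3 1.52-fold higher (1.39 to 1.66), while DKK1 was at 33.3 CPM at day 3 and 72.6 CPM at day 2. NODAL, at 35.0 CPM at day 3 and 125.5 CPM at day 2, SOX2, at 1.10 CPM and 25.1 CPM, and NKX1-2, a neuromesodermal factor, at 7.67 CPM and 33.0 CPM in that order, were lower at day 3. Epithelial genes were lower for 7 of 14 and higher for none, and CDH1 was at 37.3 CPM at day 3 and 62.3 CPM at day 2. The libraries shared few barcodes, 13 kept ones between days 2 and 3, of which 1 was an MSGN1-TBX6 cell at day 3.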

How the data were processed

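Single cells of 3 libraries, 1 per day, were analysed. Per the labels' protocols, cells were trypsinised and loaded on the 10x Genomics platform, and per the submitters' processing notes reads were processed with Cell Ranger 5.0.1 on hg38. The authors deposited raw UMI counts for 36601 genes per library, with no normalisation; any later filter of the authors is not stated in these sources. Day 1, 2 and 3 matrices held 4889, 10580 and 7860 barcodes with 177597152, 140291909 and 154373927 UMIs.

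A barcode was kept from 1000 genes upward unless mitochondrial UMIs exceeded 20%; kept cells had medians of 42295, 16007.5 and 19576 UMIs at days 1, 2 and 3. No doublet caller was run; an alternative removed the 494 day 3 cells of most UMIs, 35 of them MSGN1-TBX6 cells, at 0.8% per 1000 barcodes. UMIs were summed per class and divided by their total. CPM have exact Poisson, ratios exact conditional binomial and shares exact binomial 95% intervals, which cover counting error only. For shares, cells were thinned to 5000 UMIs, which left out 0 of 396 MSGN1-TBX6 cells and 118 of 4214 neither cells. Named genes were the 15 highest and 10 lowest ratios among genes of at least 10 CPM in the higher class, the 5 highest and lowest against LHX1-high cells, markers, and members of 29 lists. A gene named outside this rule was chosen after its values were seen. The members, lists and thresholds were chosen with earlier results of these data known. The ratio routine was tested on simulated counts. Promoters are from RefSeq (GRCh38.p14). Tools were Python 3.11.15, numpy 2.4.6, scipy 1.17.1, pandas 2.3.3 and matplotlib 3.10.9.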

Additional observations from a re-analysis of the deposited data

Results flagged for a closer look

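Some list genes were on opposite sides of neither cells at the 2 days, by at least 1.5-fold with intervals that exclude 1 and at least 10 CPM in the higher class in both libraries. The ratios of MSGN1-TBX6 over neither cells were 0.514 at day 3 and 6.66 at day 2 for HAND1, 0.615 and 3.35 for BMP4, 0.537 and 3.51 for GATA4, 0.592 and 2.79 for ISL1, and 0.614 and 3.77 for MSX1, in that order of days. They were 0.550 and 3.83 for CDH11, 0.623 and 5.94 for ZEB2, 0.532 and 9.48 for LGR5, 0.316 and 1.83 for CER1, and 0.620 and 1.69 for STRA6. With the minimum of 2 CPM used for lists, 8 more did so, all lower at day 3 and higher at day 2, namely GATA2, HOXB2, HOXB6, HOXB9, MEIS2, PAX2, TBX20 and TWIST1. The difference between the days was not tested, since each day is 1 library, and the neither cells themselves differed between the libraries. With neither cells of LHX1 under 10, the day 3 ratio was 1.59 for LGR5, 1.13 for CER1 and 1.03 for MSX1, so these 3 genes were not lower there. BMP4, CDH11, STRA6 and PAX2 were no longer called lower by the list rule with that reference, while HAND1, GATA4, ISL1 and ZEB2 still were.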

How the results depend on the processing

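No paired analysis was possible because each day has 1 library and no test was run. The share of MSGN1-TBX6 cells was 1.35% with classes set after thinning to 5000 UMIs, 1.82% with at least 2 UMIs of each gene, 1.36% with LHX1 at 0 and 9.85% with no LHX1 limit. The 120 genes higher by 2-fold became 213, 199, 222 and 65 in those settings, in that order, and 674 with no CPM minimum. The 283 lower genes became 188 with no LHX1 limit and 1013 with no CPM minimum. Scaling by TMM gave 118 and 293 genes and moved all genes by 0.02 on the log2 scale. Of 99 called genes named here, from the lists or among the 15 highest and 10 lowest ratios, none changed direction under TMM, median-of-ratios scaling, per-cell averaging, the filters tried or removal of the cells of most UMIs. PAX3 turned to 0.591 in thinned cells, 0.680 among cells of middle depth, 0.181 with at least 2 UMIs of each gene, 0.975 with the reference of LHX1 under 10, 0.919 with that reference and a MESP1 UMI, and 0.784 at day 2. TWIST2 turned to 0.674 with LHX1 at 0 and 0.305 with classes set after thinning. HOXA5 turned to 0.584 with classes set after thinning, 0.822 among the shallowest cells, and 0.964 and 0.746 with those 2 references. With them LGR5 turned to 1.59 and 1.40; CER1 turned to 1.13 and MSX1 to 1.03 with the first and CDX2 to 0.802 with the second. These 2 references were added after the data had been seen. In the day 2 library 34 of the 99 turned: ATF3 1.01, BMP4 3.35, CDH11 3.83, CER1 1.83, EGR1 0.892, ETV2 1.62, GATA2 2.72, GATA3 1.41, GATA4 3.51, HAND1 6.66, HEY1 1.07, HOXB2 7.18, HOXB3 10.1, HOXB4 23.7, HOXB5 9.49, HOXB6 3.47, HOXB9 3.80, ISL1 2.79, LGR5 9.48, LINC00578 2.32, MEIS2 2.77, MSX1 3.77, NANOS3 1.57, PAX2 3.32, PAX3, RSPO2 1.46, STRA6 1.69, TBX20 4.04, TMEM88 1.36, TMOD1 2.03, TRIB3 1.09, TWIST1 3.14, WNT6 1.11 and ZEB2 5.94; those without 2 CPM at day 2 rest on few UMIs. Of list medians at least 1.5-fold from 1 at day 3, those of lateral plate (1.81), intermediate mesoderm (0.49), axial mesoderm (1.04) and HOX (2.39) genes turned there. Of medians nearer 1, mesenchymal (0.97), hemato-endothelial (0.30), BMP response (0.16), pluripotency (-0.35), clock and Notch (-0.05), somite (-0.04) and S phase (-0.03) ones changed sign. The axial median was not finite among the shallowest and middle-depth cells, nor the neural one with no CPM minimum, so these have no value. The cause was not tested. Genes near 2 CPM rest on about 18 UMIs in the 396 cells, which limits their ratios.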

Other observations

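ZNF541, chosen here after its values were seen, had 88 UMIs in the MSGN1-TBX6 cells, of which 84 were in 1 cell and the rest in 1 other. Its class level of 9.65 CPM therefore describes a single cell. SOX17 had a similar spread on a smaller scale, with 21 of 29 UMIs in 2 of the 10 cells that had any, whereas the 10 SOX2 UMIs came from 8 cells.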
